A study of Mus musculus with 29 samples.

Results

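The Hox genes of the mouse spinal cord were followed in all libraries of a study of spinal cord ischemia. The surgery, aortic cross clamping (ACC), shuts the aorta for a time and so cuts blood flow to the caudal part of the cord. Members were taken by name alone: every protein-coding gene of the deposited 4 h count table named Hox with a cluster letter a, b, c or d and a number. This gave 40 gene identifiers under 39 symbols, since Hoxd4 stands under 2 identifiers, out of 54532 genes. Cluster a holds 11 of them, cluster b 10, cluster c 9 and cluster d 10. On GRCm38 the members of cluster a span chr6:52155590-52260880, those of cluster b chr11:96194316-96368256, those of cluster c chr15:102921103-103036852 and those of cluster d chr2:74668310-74765142.

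RNA was sequenced in bulk from poly-A selected libraries, of which 29 are in the tables. At 1 h after ACC, 3 wild-type C57BL-6J mice each gave a thoracolumbar and a cervical piece (n = 3 per region), the cervical piece serving the study as the region spared by the clamp; all these mice were clamped, so at 1 h region and clamp cannot be told apart by design. At 4 h, thoracolumbar cord came from separate ACC and Sham mice of 3 genotypes on a C57BL6 background. These were wild type (WT, 3 ACC and 3 Sham), mice lacking miR-128, a microRNA, in the whole body (miR128KO, 4 ACC and 4 Sham) and mice carrying a motor-neuron knock-in of miR-155 (miR155KI, 5 ACC and 4 Sham). Both sexes were used, and chance decided which littermates had ACC and which Sham; the driver of the knock-in and the ages are not given in the sources used here. The fits omit miR128KO ACC library 1, as in the study, which gave the lack of a response in this cord as its reason. The library was thus removed by its outcome, which left 11 ACC and 11 Sham libraries at 4 h.

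Hox genes encode homeodomain transcription factors that give tissues their identity along the head-to-tail axis. They lie in 4 clusters, and within each cluster genes with low numbers are used from the hindbrain on, whereas genes with high numbers are used only toward the tail, an order known as collinearity. Genes with the same number in different clusters form a paralog group. In the developing mouse cord, Hoxc6 and Hoxc8 are known for motor neurons at forelimb level, Hoxc9 for those of the thoracic cord, and Hoxa10, Hoxc10 and Hoxd10 for those of the lumbar cord. Hox proteins bind DNA together with TALE homeodomain cofactors of the Pbx, Meis and Pknox families, and their clusters are controlled by retinoic acid, caudal-related factors and Polycomb and Trithorax proteins.

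The promoters of 4 members on which the results turn are shown for their sequence. Hoxa10, Hoxd9 and Hoxd11 were higher in thoracolumbar cord at 1 h, and Hoxb8 fell after ACC at 4 h. Each window runs from 250 bases before to 50 bases after the gene's start, 5′ to 3′ on the gene's strand, from RefSeq on GRCm38.p6, and is the window of that gene that contains the start given in the deposited table. Capitals mark matches on either strand to 4 motifs: TTTATG, a core bound by caudal-related proteins, AGGTCA, the half-site of retinoid receptors, TGATTNAT, bound by Pbx and Hox proteins together, and TAATTA, a core bound by many homeodomain proteins.
Hoxa10, chr6:52240805-52241104, minus strand: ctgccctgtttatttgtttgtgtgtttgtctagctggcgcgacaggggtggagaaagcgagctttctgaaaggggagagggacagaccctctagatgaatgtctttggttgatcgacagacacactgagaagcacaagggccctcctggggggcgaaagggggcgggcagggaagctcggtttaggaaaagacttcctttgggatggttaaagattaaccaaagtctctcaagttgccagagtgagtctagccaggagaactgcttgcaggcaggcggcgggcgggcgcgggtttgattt
Hoxd9, chr2:74697513-74697812, plus strand: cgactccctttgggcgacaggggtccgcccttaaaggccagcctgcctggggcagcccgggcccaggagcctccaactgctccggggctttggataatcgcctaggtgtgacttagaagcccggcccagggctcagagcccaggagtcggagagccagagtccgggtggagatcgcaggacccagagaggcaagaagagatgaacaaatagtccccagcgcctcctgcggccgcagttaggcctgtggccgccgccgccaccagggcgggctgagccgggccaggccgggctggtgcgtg
Hoxd11, chr2:74679308-74679607, plus strand: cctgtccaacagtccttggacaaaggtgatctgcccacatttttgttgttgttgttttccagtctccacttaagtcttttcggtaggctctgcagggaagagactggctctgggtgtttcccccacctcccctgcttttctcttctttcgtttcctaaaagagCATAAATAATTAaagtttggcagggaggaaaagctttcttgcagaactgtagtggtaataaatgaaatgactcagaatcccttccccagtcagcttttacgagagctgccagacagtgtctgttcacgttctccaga
Hoxb8, chr11:96281655-96281954, plus strand: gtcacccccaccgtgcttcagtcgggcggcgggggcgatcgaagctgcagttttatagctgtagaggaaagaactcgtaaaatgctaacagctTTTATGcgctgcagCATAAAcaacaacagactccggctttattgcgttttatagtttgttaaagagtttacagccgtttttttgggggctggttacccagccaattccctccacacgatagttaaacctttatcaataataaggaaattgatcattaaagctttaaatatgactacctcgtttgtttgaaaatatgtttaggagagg
The windows of Hoxa10 and Hoxd9 hold no match to these 4 motifs. That of Hoxd11 holds 1 TTTATG next to 1 TAATTA, without overlap, and that of Hoxb8 holds 2 TTTATG. Hoxd11 has another window, not shown (chr2:74682073-74682372), which holds 1 TGATTNAT and 1 TAATTA. Another window of Hoxa10, also not shown, holds no match. Of 32851 promoter windows of 300 bases, 11.9% hold TTTATG, 16.3% AGGTCA, 3.22% TGATTNAT and 5.29% TAATTA. Among the 24 windows found for 22 of the Hox symbols, the motifs stand in 5, 7, 2 and 2. These matches are a description of the letters and were not tied to the measured levels.

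Library sizes ran from 15596512 to 33056693 counts, so 3 counts, the limit set by a count of 0, correspond to between 0.0908 and 0.192 CPM (counts per 1000000 counts of the library). Hox genes together made up 0.0812% to 0.102% of all counts of a library. The thoracolumbar libraries at 4 h stood apart by treatment in Hspa1b, a stress-induced chaperone gene, at 375 to 768 CPM in the 11 ACC libraries and 1.60 to 4.42 CPM in the 11 Sham libraries. At 1 h, thoracolumbar library 3 went against this pattern, with 3.39 CPM of Hspa1b and 15.4 CPM of the immediate early gene Fos. Thoracolumbar libraries 1 and 2 had 386 and 353 CPM of Hspa1b and 319 and 387 CPM of Fos. Cervical libraries 1, 2 and 3 had 14.8, 6.04 and 3.84 CPM of Hspa1b and 46.9, 33.9 and 23.6 CPM of Fos. Thoracolumbar library 3 was thus below every cervical library in both genes. Each 4 h library is described as the cord of 1 mouse.

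The first comparison set thoracolumbar against cervical cord at 1 h. Several Hox genes with high numbers were higher in thoracolumbar cord, from 1.27-fold for Hoxb9 and 5.97-fold for Hoxd9 in paralog group 9 to 16.9-fold for Hoxa10 and 34.2-fold for Hoxc10 in group 10, and 3 genes of cluster c with middle numbers were lower. Of 34 members tested, 9 were higher, beside 0.208% of all 17810 genes tested, and 3 were lower, beside 0.23% of all genes. The 9 were Hoxa9, Hoxa10, Hoxa11, Hoxb9, Hoxc10, Hoxc12, Hoxc13, Hoxd9 and Hoxd11, and the 3 were Hoxc5, Hoxc6 and Hoxc8. The median log2 fold change of the 34 members was 0.12, beside -0.0048 over all genes tested. CPM did not overlap between the groups for 14 members with higher and 4 with lower values in thoracolumbar cord, beside 10.1% and 4.78% of all genes. Calls are those of edgeR's quasi-likelihood test with Benjamini-Hochberg adjustment over all genes and a threshold of 0.05. This fit took the libraries as unpaired, although both pieces came from the same mice. With the mouse as a block 7 members were higher, without Hoxb9 and Hoxc10, and the same 3 were lower.

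**Figure D1:**
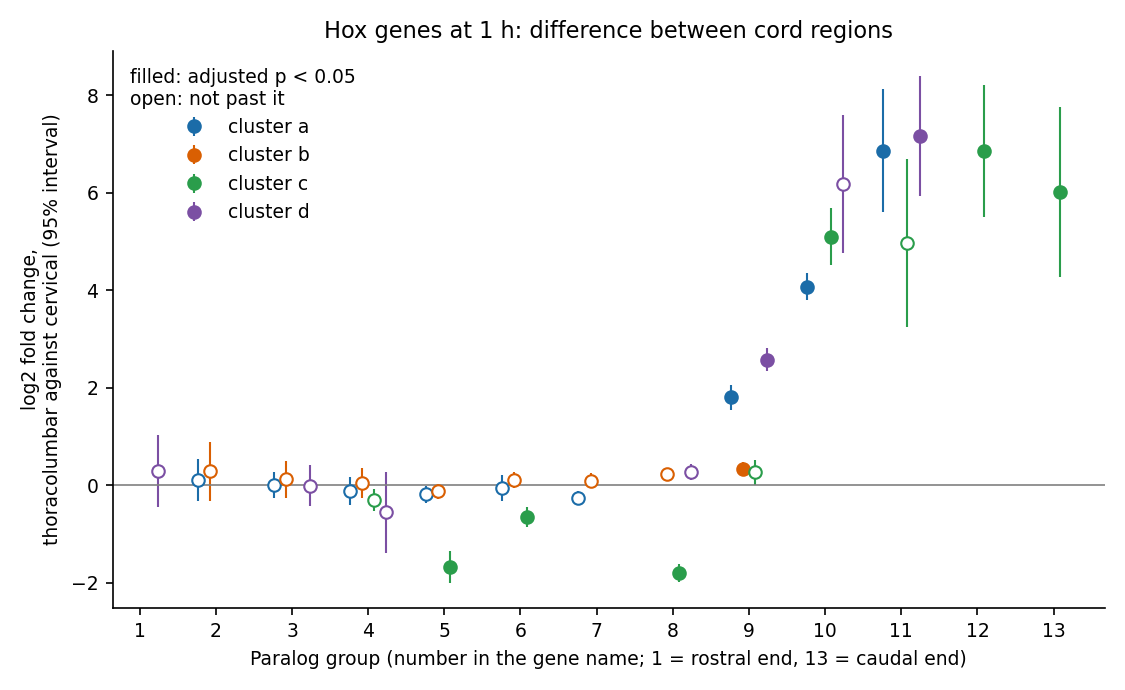
Log2 fold change of thoracolumbar against cervical cord at 1 h (vertical axis) for Hox genes tested, by paralog group (horizontal axis) and cluster (colour). Bars are nominal 95% intervals from the SE and the normal quantile, which are too narrow for this test. Filled points passed an adjusted p of 0.05. In groups 1 to 8 only Hoxc5, Hoxc6 and Hoxc8, below 0, are filled, and the open point of Hoxd4 lies at -0.55 with a wide interval. The points of clusters a and d climb from group 9 to group 11, whereas Hoxc11 (4.98) lies level with Hoxc10 (5.10).

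Summed over the members of a paralog group, the ratio of mean thoracolumbar to mean cervical CPM lay between 0.835 and 1.2 in groups 1 to 8. It was 1.83 in group 9, where the summed level was 219 ± 3.60 CPM in thoracolumbar and 120 ± 10.2 CPM in cervical cord (SD, n = 3 each). It was 24.5 in group 10, with 99.6 ± 9.82 against 4.06 ± 1.80 CPM, and 46 in group 11, with 10.4 ± 2.70 against 0.227 ± 0.359 CPM. Groups 12 and 13 were low in both regions, at 2.53 ± 0.826 against 0.0214 ± 0.0370 CPM and 2.02 ± 1.21 against 0.123 ± 0.0374 CPM. The genes of groups 9 to 13 supplied 31.1% to 33.6% of all Hox counts in the 3 thoracolumbar libraries and 12.8% to 14.5% in the 3 cervical ones, and those of groups 10 to 13 supplied 9.67% to 12.5% and 0.295% to 0.735%. The groups of libraries did not overlap in either share.

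**Figure D2:**
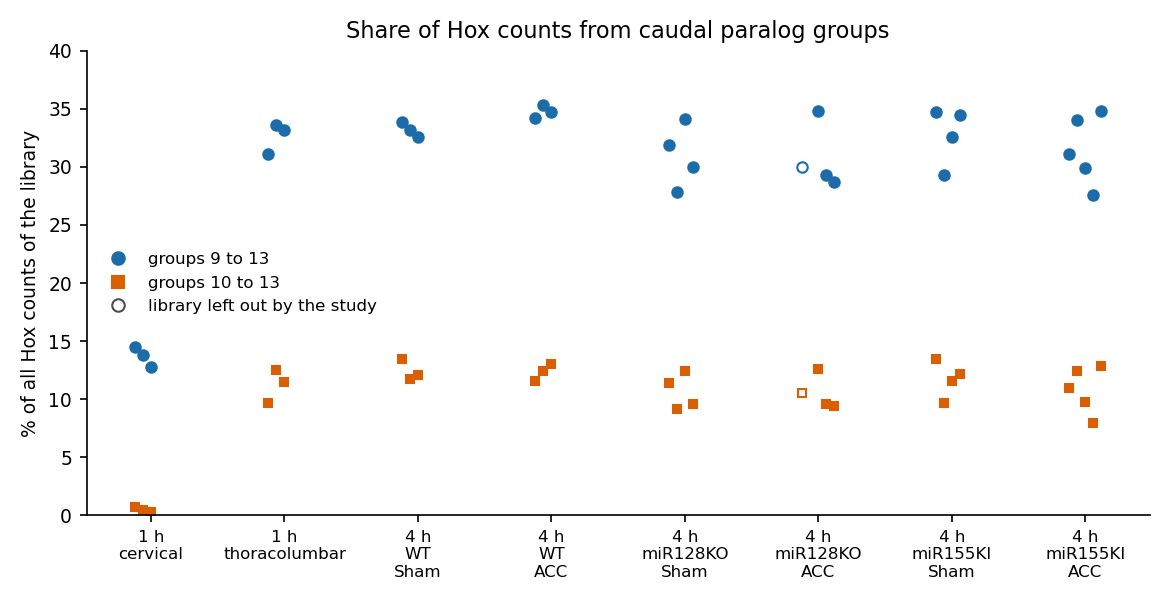
Share of all Hox counts of a library that came from paralog groups 9 to 13 (circles) and 10 to 13 (squares), as a percentage, in the 29 libraries by group; the open symbols are the miR128KO ACC library left out by the study. The 3 cervical libraries lie at 12.8% to 14.5% for groups 9 to 13 and all thoracolumbar libraries in the fits at 27.6% to 35.3%.

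Group 9 has 4 paralogs. Hoxa9 stood at 22.4, 17.4 and 13.97 CPM in cervical libraries 1, 2 and 3 and at 65.8, 61.7 and 62.7 CPM in thoracolumbar libraries 1, 2 and 3, a log2 fold change of 1.80 (SE 0.132, adjusted p = 3.29e-05, edgeR). Hoxd9 stood at 4.62, 5.65 and 5.17 CPM in cervical and 30.4, 34.9 and 29.8 CPM in thoracolumbar cord, a log2 fold change of 2.58 (SE 0.118, adjusted p = 1.21e-09, edgeR). Both were higher in 3 of 3 mice, without overlap. Hoxb9 was high in both regions, at 77.4 ± 2.91 CPM in cervical and 100 ± 3.69 CPM in thoracolumbar cord (SD, n = 3), a log2 fold change of 0.34 (SE 0.068, adjusted p = 0.0332, edgeR). The Hoxb9 call was lost when any 1 of the 6 libraries was left out, with adjusted p up to 0.26, and with the mouse as a block (adjusted p = 0.0694). Hoxc9, the thoracic gene of cluster c, stood at 23.1, 19.4 and 15.2 CPM in cervical and 24.2, 21.1 and 25.1 CPM in thoracolumbar cord. Its groups overlapped, and its log2 fold change of 0.27 (SE 0.129, adjusted p = 0.627, edgeR) did not pass the threshold. Its nominal 95% interval, 0.013 to 0.52, left out 0 only because the normal quantile makes it too narrow. The unadjusted p of the same edgeR test was 0.0574.

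Group 10 is the group known for lumbar motor neurons. Hoxa10 stood at 3.01, 2.67 and 1.86 CPM in the cervical libraries and at 38.8, 45.7 and 43.7 CPM in the thoracolumbar ones. No cervical value came near a thoracolumbar one, and the log2 fold change was 4.08 (SE 0.142, adjusted p = 5.34e-11, edgeR), or 16.9-fold. Hoxc10 stood at 2.24, 1.02 and 0.579 CPM in cervical and 37.4, 43.6 and 42.7 CPM in thoracolumbar cord, a log2 fold change of 5.10 (SE 0.298, adjusted p = 0.000391, edgeR), or 34.2-fold. With the mouse as a block the Hoxc10 difference was the same size, 5.10, with an adjusted p of 0.0905. Hoxd10 stood at 0.769, 0 and 0.0413 CPM in cervical and 12.7, 18.8 and 15.4 CPM in thoracolumbar cord. The groups of Hoxd10 did not overlap either, but its log2 fold change of 6.19 (SE 0.725, adjusted p = 0.0626, edgeR) missed the threshold.

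**Figure D3:**
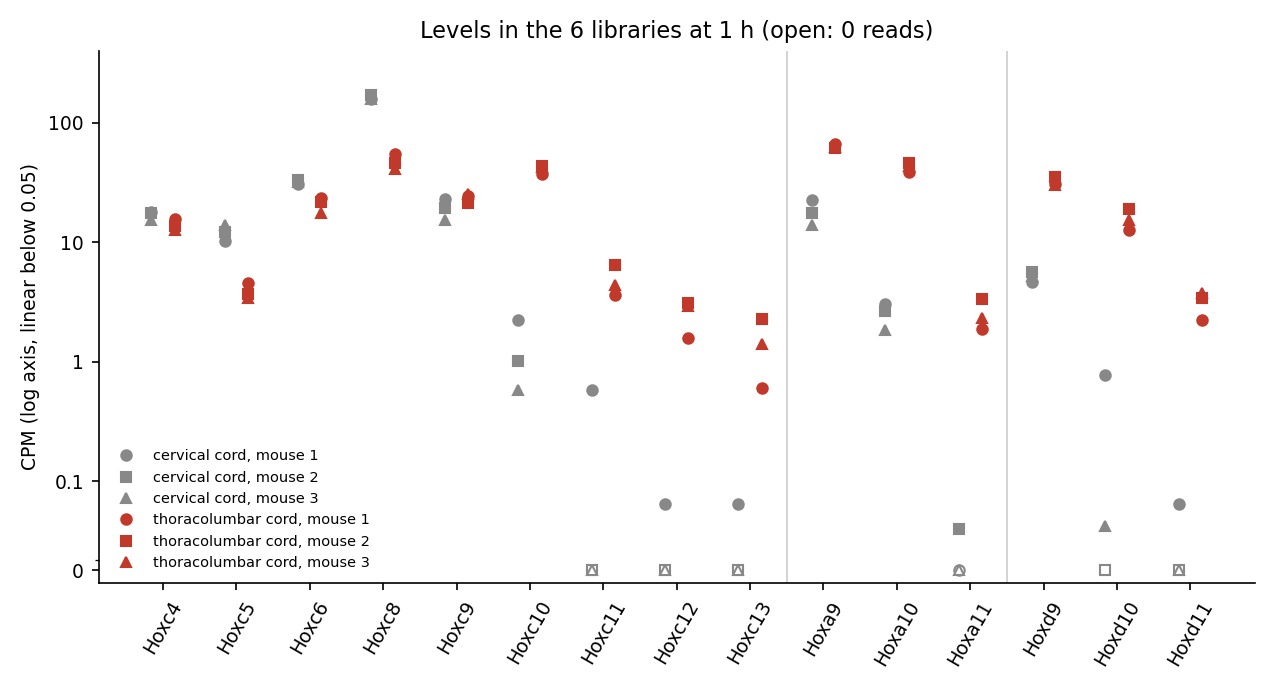
Level in CPM (log axis, linear below 0.05) of cluster c and of the group 9 to 11 genes of clusters a and d in the 6 libraries at 1 h, grey for cervical and red for thoracolumbar cord, one symbol shape per mouse; open symbols are 0 reads. Hoxc5, Hoxc6 and Hoxc8 are higher in cervical cord and Hoxc10 to Hoxc13 in thoracolumbar cord, and cervical mouse 1 holds the highest cervical value of Hoxc10 to Hoxc13 and Hoxd10.

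Hoxa11, Hoxd11, Hoxc12 and Hoxc13, of groups 11 to 13, had reads in every thoracolumbar library and 1 read each over the 3 cervical libraries. Hoxa11, known for limb and kidney patterning, stood at 0, 0.0392 and 0 CPM in cervical and 1.89, 3.33 and 2.33 CPM in thoracolumbar cord. Hoxd11, its paralog in cluster d, stood at 0.0641, 0 and 0 CPM and at 2.23, 3.39 and 3.73 CPM. Each of these cervical groups held 1 read in all, against 158 and 197 reads in thoracolumbar cord. The ratio of pooled CPM was 159 for Hoxa11, with a 95% counting interval of 28 to 6300, and 198 for Hoxd11, with an interval of 35 to 7840. Hoxc12 stood at 0.0641, 0 and 0 CPM in cervical and 1.59, 3.11 and 2.91 CPM in thoracolumbar cord. Hoxc13, known for its role in hair, stood at 0.0641, 0 and 0 CPM and at 0.605, 2.28 and 1.41 CPM. All 4 genes passed the threshold, with adjusted p of 2.42e-05, 1.01e-05, 4.38e-05 and 0.00348 in this order (edgeR), and all were higher in 3 of 3 mice. Hoxc11 had 9 reads in cervical cord, all of them in library 1 (0.577 CPM), and 302 in thoracolumbar cord (3.63, 6.44 and 4.36 CPM), with an adjusted p of 0.133 (edgeR).

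Cervical library 1 held more reads per library total of several caudal genes than cervical libraries 2 and 3. Without it, Hoxd10 and Hoxc11 passed the threshold, with adjusted p of 7.17e-09 and 7.71e-06 (edgeR), and Hoxd10 also passed without cervical library 2 (adjusted p = 0.0415, edgeR). The excess was small beside the thoracolumbar levels, with Hoxd10 at 12.7 CPM and Hoxc11 at 3.63 CPM in the thoracolumbar library of the same mouse. Thoracolumbar library 3, which lacked the Fos and Hspa1b levels of its group, had the same Hox differences as the other 2: within its mouse, Hoxa10 differed by 4.49, Hoxc10 by 5.995 and Hoxc8 by -1.95 on the log2 scale, beside 3.65 and 4.05, 4.00 and 5.30, and -1.52 and -1.88 in mice 1 and 2. Without that library 11 of the 12 calls remained, all but Hoxb9.

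The genes lower in thoracolumbar cord were all of cluster c. Hoxc8, a gene of the lower cervical and upper thoracic cord, stood at 159, 170 and 159 CPM in cervical and 55.2, 46.1 and 40.9 CPM in thoracolumbar cord, a log2 fold change of -1.81 (SE 0.0937, adjusted p = 1.73e-08, edgeR), or 3.5-fold lower. Hoxc5 stood at 10.3, 12.2 and 14.01 CPM in cervical and 4.54, 3.72 and 3.44 CPM in thoracolumbar cord, a log2 fold change of -1.67 (SE 0.164, adjusted p = 3.52e-05, edgeR). Hoxc6 stood at 30.8, 33.3 and 32.2 CPM and at 23.6, 21.6 and 17.6 CPM, a log2 fold change of -0.65 (SE 0.104, adjusted p = 0.00652, edgeR). All 3 were lower in 3 of 3 mice, without overlap of the groups. Their paralogs did not pass the threshold: Hoxa5 and Hoxb5 had log2 fold changes of -0.19 and -0.13, Hoxa6 and Hoxb6 of -0.06 and 0.10, and Hoxb8 and Hoxd8 of 0.22 and 0.27. The annotated span of Hoxc5 overlaps Hoxc6, Hoxc8, Hoxc9 and Hoxc10 on the same strand and shares 166 exonic bases with Hoxc10, so reads there could be assigned to neither or to the wrong gene; Hoxc8 and Hoxc6 share no exonic base with another gene in GENCODE M21.

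Apart from Hoxc5, Hoxc6 and Hoxc8, no tested member of groups 1 to 8 passed the threshold. Hoxa7 stood at 67.4, 71.3 and 76.2 CPM in cervical and 63.9, 57.1 and 61.7 CPM in thoracolumbar cord (log2 fold change -0.27, adjusted p = 0.211, edgeR). Hoxb7 was close to even, at 34.6 ± 2.11 and 37.7 ± 0.160 CPM (SD, n = 3). The 6 members that were not tested at 1 h had too few reads: Hoxd12 had 0 in all 6 libraries, which allows up to 0.0459 CPM over the 3 cervical libraries together, and Hoxa13, Hoxb1, Hoxd13, Hoxb13 and 1 of the Hoxd4 identifiers had between 1 and 5 reads in the 3 cervical libraries together. Hoxb13 had 27 reads in thoracolumbar cord, all from mice 2 and 3, against 3 in cervical cord.

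Levels of different genes were compared per kilobase of the deposited gene length. In cervical cord the order was led by Hoxb8 at 70.7 ± 4.14 CPM per kilobase (SD, n = 3), Hoxc8 at 57.4 ± 2.38, Hoxb6 at 34.3 ± 4.35 and Hoxb9 at 30.1 ± 1.13. Hoxb6 and Hoxb9 differed by less than the SD of Hoxb6 but by more than that of Hoxb9. Hoxb7 at 22.4 ± 1.37, Hoxd8 at 22 ± 1.52 and Hoxa5 at 21 ± 2.02 lay close together, with overlapping spreads. In thoracolumbar cord Hoxb8 led again at 84.4 ± 2.57, followed by Hoxb9 at 38.9 ± 1.43 and Hoxb6 at 37.6 ± 1.87, which did not differ beyond their spread. Hoxc10 held the sixth place there at 21.6 ± 1.76 CPM per kilobase, beside Hoxa7 at 21.2 ± 1.21, whereas in cervical cord it was at 0.671 ± 0.452. Hoxc8 moved from the second place to the ninth, at 16.7 ± 2.56.

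These libraries hold all cells of the cord, so fewer cells of a type and less RNA per cell cannot be told apart. Of 12 motor neuron markers, 4 were lower in thoracolumbar cord, beside 0.23% of all genes tested, and 0 were higher, beside 0.208%. Slc5a7, the choline transporter, had a log2 fold change of -0.89, Prph of -0.55 and Slc18a3, the vesicular acetylcholine transporter, of -0.67. Markers that did not pass included Mnx1 (-0.66), Isl1 (-0.37) and Esrrg (-0.08). The summed level of the 12 markers was 574 to 633 CPM in the cervical and 422 to 434 CPM in the thoracolumbar libraries. All 12 had reads in both regions. Of the markers of neurons (8), astrocytes (6), oligodendrocytes (6), microglia (6), fibroblasts and meninges (6), skeletal muscle (6) and Schwann cells and dorsal root ganglia (6 of 8 tested), 0 passed the threshold at 1 h. The part of the motor neuron difference in the Hox differences was not tested.

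Among 46 other genes annotated within the spans of the 4 clusters, 19 could be tested at 1 h. Of these, 4 were higher in thoracolumbar cord, beside 0.208% of all genes tested, and 0 were lower, beside 0.23%. The 4 were all non-coding and all neighbours of high-numbered Hox genes. Gm53, a long non-coding RNA gene upstream of Hoxb9 (chr11:96251105-96264868), stood at 0.513, 0.353 and 0.62 CPM in cervical and 14.8, 14.7 and 17.9 CPM in thoracolumbar cord (log2 fold change 4.96, SE 0.213, adjusted p = 7.07e-10, edgeR). The Mir196a-1 locus, just past the end of Gm53 on the same strand, had 3 reads in the cervical libraries together and 53, 30 and 43 in the thoracolumbar ones (log2 fold change 5.20, adjusted p = 6.79e-05, edgeR). Hotair, a non-coding RNA of cluster c known in human cells for an interaction with Polycomb proteins, stood at 0.128, 0 and 0 CPM in cervical and 1.55, 2.50 and 1.89 CPM in thoracolumbar cord (adjusted p = 0.000293, edgeR). Hoxa11os, transcribed against Hoxa11, had 0 reads in cervical cord and 86 in thoracolumbar cord, at least 28.7-fold more against a floor of 3 counts over the 3 cervical libraries, with an adjusted p of 0.0228 (edgeR). Hoxa11 shares 800 of its exonic bases with genes of the opposite strand, and as the strand setting of the counting is not given, reads of the pair may not be fully separated.

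The microRNA of the Mir196a-1 locus is shown because miR-196 is known to direct cleavage of Hoxb8 mRNA in mouse embryos and because its locus differed between the regions. Capitals mark the seed, bases 2 to 8, and both sequences are from RefSeq.
miR-196a-5p: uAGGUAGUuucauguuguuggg
miR-196b-5p: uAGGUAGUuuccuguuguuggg
Mir196a-1 in cluster b and Mir196a-2 in cluster c give the first sequence and Mir196b in cluster a the second. They share the seed and differ by A12C, counted from the 5′ end of miR-196a-5p. Reads over these loci in poly-A libraries come from longer transcripts and do not measure the mature microRNA. Mir196b had 0 reads in all 29 libraries. Hoxb8 itself stood at 193, 193 and 174 CPM in cervical and 218, 219 and 230 CPM in thoracolumbar cord, without overlap and with the higher values in the region where the Mir196a-1 locus was read (log2 fold change 0.22, adjusted p = 0.221, edgeR).

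The factors known to act with or on Hox genes were not called between the regions. Of 9 TALE cofactors, 18 Polycomb genes, 8 Trithorax and H3K27 demethylase genes, 12 of 14 retinoid pathway genes and 2 of 5 caudal-related and even-skipped genes that could be tested, 0 passed the threshold. Their median log2 fold changes were 0.09, 0.05, -0.05, 0.16 and 0.38, beside -0.0048 over all genes. Meis2, a TALE cofactor, came nearest at a log2 fold change of 0.35 (SE 0.0731, adjusted p = 0.0506, edgeR).

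At 4 h, Hoxa10, Hoxc10, Hoxd9 and Hoxc8 lay outside the cervical range of 1 h in every thoracolumbar library of the fits, Sham included. In the 22 libraries of the fits Hoxa10 ran from 21.8 to 42.0 CPM with a median of 35.9, Hoxc10 from 26.6 to 45.8 with a median of 39.5, Hoxd9 from 17.8 to 33.8 with a median of 28.1, and Hoxc8 from 35.4 to 75.7 with a median of 50.7. The cervical values of Hoxa10, Hoxc10 and Hoxd9 at 1 h were at most 3.01, 2.24 and 5.65 CPM, and those of Hoxc8 at least 158.5 CPM. Many of the 4 h values were below the thoracolumbar values of 1 h, where the lowest Hoxa10 was 38.8 CPM. The 1 h and 4 h libraries come from separate tables and are set side by side without a test.

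The second comparison asked which Hox genes differed between ACC and Sham at 4 h. Its fit pooled the 3 genotypes without a genotype term. Hoxb7 and Hoxb8, neighbours in cluster b, fell after ACC. Hoxd10 was also called lower and Hoxc6 higher, but these calls were lost in 16 and 17 of 28 alternative fits. The fits that lost Hoxc6 included that with genotype as a term. The other lumbar genes did not pass the threshold. Of 34 members tested, 2 were higher, beside 9.37% of all 17759 genes tested, and 3 were lower, beside 7.04% of all genes. These counts are near the background and are no result about the members as a set. The median log2 fold change of the members was -0.04, beside -0.0097 over all genes.

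Hoxb7 ran from 20.4 to 27.6 CPM with a median of 23.3 in the 11 ACC libraries and from 30.4 to 39.2 CPM with a median of 34.3 in the 11 Sham libraries. In the libraries of the fits the groups did not overlap, which held for 1 member with lower and 0 with higher values, beside 0.186% and 1.04% of all genes. The omitted miR128KO ACC library 1 had 33.7 CPM of Hoxb7, within the Sham range. The log2 fold change was -0.53 (SE 0.0564, 95% interval -0.64 to -0.42, adjusted p = 5.23e-08, edgeR), or 1.45-fold lower. Hoxb8, whose loss in mice causes excessive grooming, ran from 168 to 203 CPM with a median of 183 after ACC and from 195 to 245 CPM with a median of 223 in Sham. Its groups overlapped slightly, and its log2 fold change was -0.27 (SE 0.0456, adjusted p = 9.67e-05, edgeR), or 1.2-fold lower. Hoxb9, the next gene of the cluster, had a log2 fold change of -0.05 (95% interval -0.13 to 0.03) and Hoxb6, on the other side, of -0.08 (95% interval -0.17 to 0.0044). Hoxb7 and Hoxb8 overlap no other annotated gene.

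**Figure D4:**
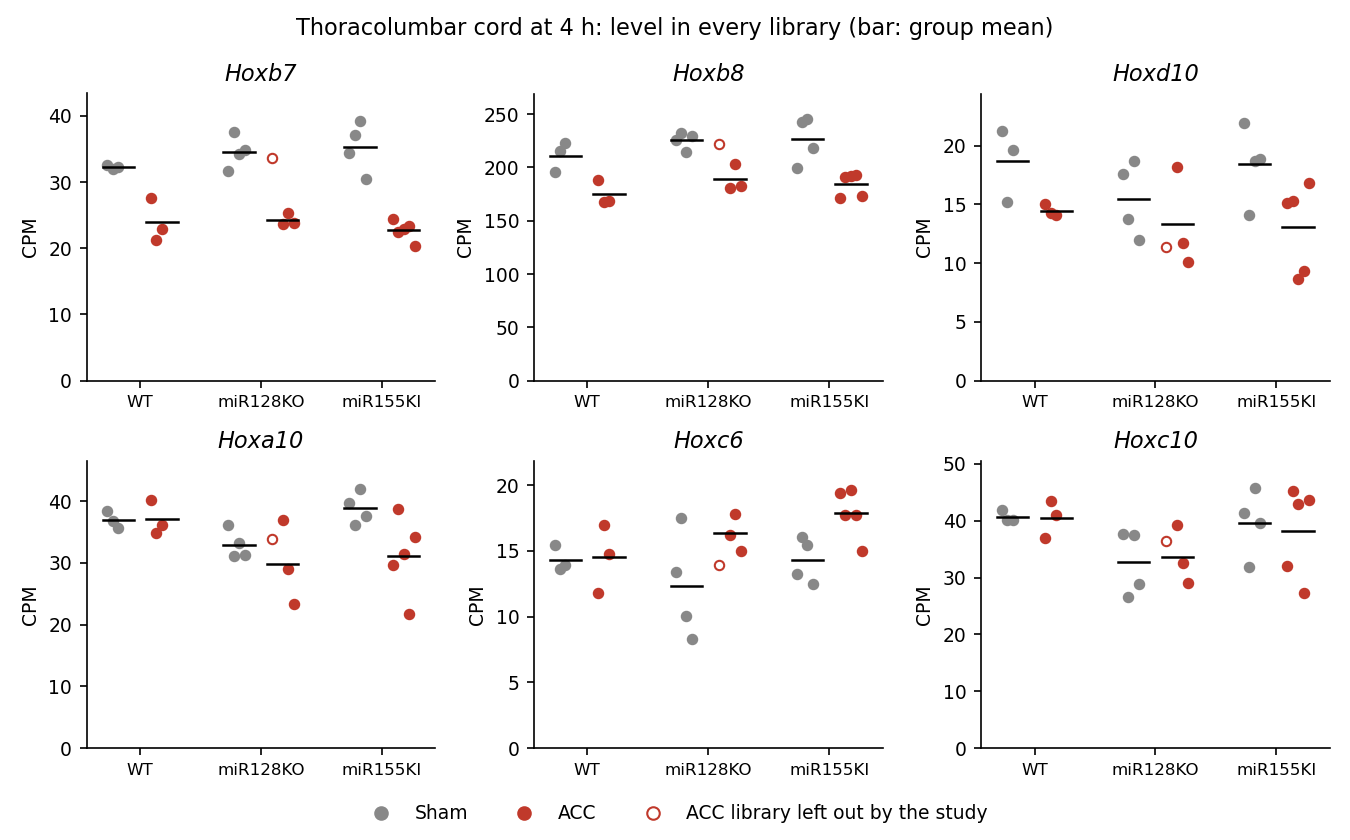
CPM of 6 Hox genes in every thoracolumbar library at 4 h, grey for Sham and red for ACC, by genotype, with a bar at the group mean; the open symbol is the miR128KO ACC library left out by the study. Hoxb7 is lower in every ACC library of the fits (20.4 to 27.6 CPM) than in any Sham library (30.4 to 39.2 CPM), whereas Hoxc10 overlaps throughout.

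Hoxd1, known in mice for the wiring of pain-sensing neurons, ran from 0.505 to 1.69 CPM after ACC and from 0.416 to 1.44 CPM in Sham (log2 fold change 0.59, adjusted p = 0.0528, edgeR).

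Hoxd10 ran from 8.67 to 18.2 CPM with a median of 14.3 after ACC and from 11.95 to 21.95 CPM with a median of 18.7 in Sham, with a log2 fold change of -0.36 (SE 0.123, adjusted p = 0.0474, edgeR). Hoxc6 ran from 11.8 to 19.6 CPM with a median of 17.0 after ACC and from 8.29 to 17.5 CPM with a median of 13.7 in Sham, with a log2 fold change of 0.29 (SE 0.102, adjusted p = 0.0478, edgeR). Both groups overlapped widely, and each call was lost without 1 library in 14 of 22 cases, with adjusted p over all alternatives from 0.021 to 0.102 for Hoxd10 and from 0.0162 to 0.0969 for Hoxc6. Hoxa10 was at 32.4 ± 6 CPM after ACC and 36.2 ± 3.35 CPM in Sham (SD, n = 11; log2 fold change -0.15, adjusted p = 0.251, edgeR). Hoxc10 was at 37.5 ± 6.36 and 37.4 ± 5.86 CPM (log2 fold change 0.02, 95% interval -0.17 to 0.20), Hoxd9 at 26.9 ± 4.72 and 28.2 ± 3.78 CPM (-0.06, 95% interval -0.23 to 0.12), and Hoxc8 at 58.2 ± 12.2 and 49.3 ± 12.4 CPM (0.25, 95% interval -0.02 to 0.52). The shares of groups 9 to 13 overlapped, at 32.2% ± 2.92 of Hox counts after ACC and 32.2% ± 2.27 in Sham (SD, n = 11).

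The omitted miR128KO ACC library 1 had Fos at 10.65 CPM and Hspa1b at 2.78 CPM, both within the range of the Sham libraries. Its Hoxb7 of 33.7 CPM and Hoxb8 of 222 CPM lay within the range of the Sham libraries and above every ACC library of the fits. With it included, the log2 fold changes were -0.48 for Hoxb7 and -0.24 for Hoxb8, and both still passed the threshold, while Hoxc6 did not (adjusted p = 0.0699, edgeR).

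Within the genotypes, fitted as 6 groups with 1 shared spread, 36 members were tested. In WT 0 were higher and 1 lower, beside 1.44% and 0.291% of all 19581 genes. In miR128KO 0 were higher and 1 lower, beside 2.07% and 0.659%. In miR155KI 1 was higher and 2 were lower, beside 3.29% and 1.32%.

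Hoxb7 was the lower gene in all 3 genotypes. In WT it stood at 27.6, 21.2 and 23.0 CPM after ACC and 32.6, 32.0 and 32.2 CPM in Sham (log2 fold change -0.42, SE 0.11, adjusted p = 0.0478, edgeR). In miR128KO it stood at 23.8, 25.4 and 23.8 CPM after ACC and 31.6, 37.7, 34.3 and 34.9 CPM in Sham (-0.49, SE 0.102, adjusted p = 0.00606, edgeR). In miR155KI it stood at 24.4, 22.5, 23.0, 23.3 and 20.4 CPM after ACC and 34.5, 37.1, 39.2 and 30.4 CPM in Sham (-0.62, SE 0.0882, adjusted p = 5.52e-05, edgeR). In the libraries of the fits the groups did not overlap in any genotype. The omitted miR128KO ACC library 1, at 33.7 CPM, lay within the Sham range of miR128KO. With it included, neither the miR128KO nor the WT call remained. The WT call was near the threshold and was lost in 17 of 22 fits that left out 1 library.

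Hoxb8 was 175 ± 11.8 against 211 ± 14.2 CPM in WT (SD, n = 3 and 3), 189 ± 12.3 against 225 ± 7.8 CPM in miR128KO (n = 3 and 4) and 184 ± 11.1 against 227 ± 21.5 CPM in miR155KI (n = 5 and 4). Only the last passed the threshold (log2 fold change -0.29, adjusted p = 0.0153, edgeR), beside -0.26 in WT and -0.23 in miR128KO, and that call was lost without miR155KI Sham library 2 or 3. Hoxc6 had a log2 fold change of 0.03 in WT, 0.42 in miR128KO and 0.34 in miR155KI, none of which passed. In miR128KO, Hoxc6 passed without Sham library 2.

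The test of a difference of the ACC effect among the genotypes called 0 of the 36 members and 0 of all genes by edgeR; at an unadjusted p under 0.05 it held 0 members and 618 genes. Hoxb7 and Hoxb8 had unadjusted p of 0.324 and 0.879 in it. Sham miR128KO against Sham WT and Sham miR155KI against Sham WT called 0 members and 0 of all genes, with 0 and 2 members and 1248 and 916 genes at an unadjusted p under 0.05. Sham miR155KI against Sham miR128KO called 0 members, beside 0.0562% of all genes higher and 0.0919% lower, with 2 members at an unadjusted p under 0.05. The count from DESeq2 was 0 members in all 4 of these tests as well.

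The Hox genes of the lumbar level varied from cord to cord within groups. The SD of log2 CPM around the 6 group means was 0.208 for Hoxa10, 0.235 for Hoxc10, 0.226 for Hoxd9 and 0.334 for Hoxd10, beside medians of 0.124, 0.12, 0.132 and 0.158 for all genes of like level. Hoxc8 was at 0.327, beside 0.11. Other middle genes of cluster c were also above the median of like genes, with Hoxc5 at 0.431 beside 0.263 and Hoxc6 at 0.254 beside 0.159, whereas Hoxb7 was at 0.119 beside 0.13, Hoxb8 at 0.0973 beside 0.0975 and Hoxd8 at 0.0747 beside 0.105. The low genes Hoxb13, Hoxa13, Hoxc12, Hoxc13 and Hoxc11 had the highest SD of the members in this fit, at 1.76, 1.14, 1.09, 0.824 and 0.581, beside 0.714, 0.925, 0.364, 0.497 and 0.263 for genes of like level. Hoxb13 ran from 0 to 2.43 CPM over the 22 libraries.

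Hoxa10, Hoxc10 and Hoxd9 deviated together. Over the 22 libraries, as deviations from the 6 group means, Hoxa10 and Hoxc10 had a Pearson r of 0.785 and a Spearman rho of 0.807 (permutation p = 2e-04 and 0.00046; adjusted over 6 pairs 0.00088 and 0.00234). Hoxa10 and Hoxd9 had an r of 0.883 and a rho of 0.767 (permutation p = 0.00034 and 0.00078; adjusted 0.00088 and 0.00234). Hoxc10 and Hoxd9 had an r of 0.801 and a rho of 0.771 (permutation p = 0.00044 and 0.0019; adjusted 0.00088 and 0.0038). Without the 2 libraries farthest from the median of the first gene, r was 0.662, 0.842 and 0.735. The genes of a pair share library and depth.

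Within genotypes the relation of Hoxa10 and Hoxc10 was r = 0.774 in miR128KO (n = 7) and 0.888 in miR155KI (n = 9) but -0.738 in WT (n = 6), where Hoxc10 ran only from 36.9 to 43.4 CPM. It thus did not hold in all genotypes. Hoxa10 and Hoxd9 had r of 0.138 in WT, 0.99 in miR128KO and 0.884 in miR155KI, and Hoxc10 and Hoxd9 had -0.43, 0.842 and 0.895.

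**Figure D5:**
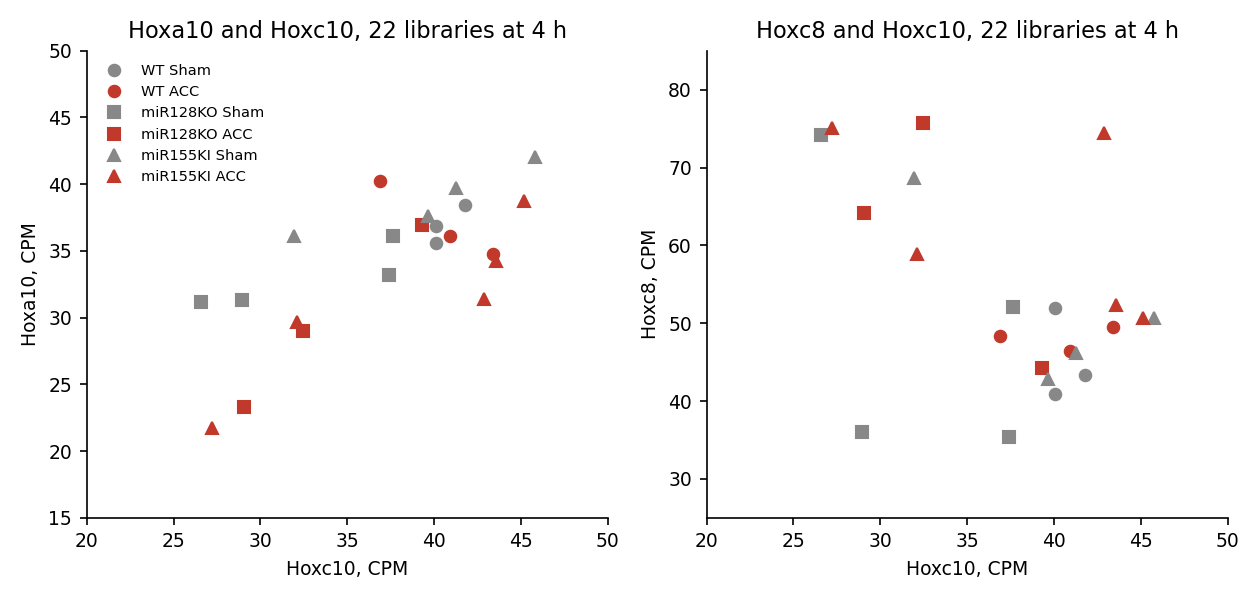
Hoxa10 (left) and Hoxc8 (right) against Hoxc10, all in CPM, in the 22 thoracolumbar libraries at 4 h; symbol shape is the genotype and colour the treatment, and the axes do not start at 0. Hoxa10 tends to be high where Hoxc10 is high (r = 0.785 of deviations from the group means), and libraries with Hoxc10 near its lowest value of 26.6 CPM include some of the highest Hoxc8 values, up to 75.7 CPM.

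Hoxc8, the gene lower in thoracolumbar than in cervical cord, had negative coefficients with all 3. They were r = -0.464 and rho = -0.482 with Hoxa10 (permutation p = 0.0555 and 0.0576; adjusted 0.0666 and 0.074), r = -0.526 and rho = -0.506 with Hoxc10 (permutation p = 0.0482 and 0.0617; adjusted 0.0666 and 0.074) and r = -0.399 and rho = -0.333 with Hoxd9 (permutation p = 0.139 and 0.232; adjusted 0.139 and 0.232). None passed the threshold after adjustment. Without the 2 farthest libraries r was -0.373, -0.406 and -0.21. Within WT, miR128KO and miR155KI the r of Hoxc8 was -0.312, -0.368 and -0.621 with Hoxa10, -0.0267, -0.554 and -0.595 with Hoxc10, and -0.479, -0.371 and -0.441 with Hoxd9. The exact cord level of each piece is not given in the sources used here, and its part in these values was not tested.

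Some regulators and cofactors of Hox genes differed between ACC and Sham at 4 h. Kdm6b, which removes the Polycomb mark from histone H3, rose from 32.3 to 58.4 CPM (log2 fold change 0.87, SE 0.076, adjusted p = 2.49e-09, edgeR) and was the only one called of 8 Trithorax and H3K27 demethylase genes. Rara, the retinoic acid receptor alpha, rose from 6.30 to 9.99 CPM (0.68, adjusted p = 1.55e-05) and was the only one called of 13 retinoid pathway genes tested. Of 9 TALE cofactors, Pbx4 (0.44) and Pknox1 (0.24) rose and Pknox2 (-0.28) fell, and of 18 Polycomb genes 2 rose, Eed (0.25) among them, and 1 fell, Ezh1 (-0.16). The shares of higher genes in all genes, 9.37%, and of lower genes, 7.04%, stand beside these counts. Of 18 other genes of the clusters tested, 1 was lower, Gm53, at 11.7 ± 2.70 CPM after ACC and 14.7 ± 2.09 CPM in Sham (SD, n = 11; log2 fold change -0.32, adjusted p = 0.0472, edgeR), whereas Mir196a-1 had -0.28, Hotair -0.44 and Hoxa11os -0.09, none of which passed. The 2 caudal-related and even-skipped genes tested gave 0 calls.

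Among cell markers at 4 h, 3 of 6 microglia markers were lower after ACC: P2ry12 (log2 fold change -0.78), Tmem119 (-0.79) and Csf1r (-0.18), with 0 higher and a summed level of 188 to 254 CPM after ACC and 234 to 290 CPM in Sham. Of 8 neuron markers 1 was lower (Syt1, -0.27), and of 6 astrocyte markers 1 was lower (Gja1, -0.17). Of the 12 motor neuron, 6 oligodendrocyte, 6 fibroblast and meningeal, 6 skeletal muscle and 6 tested Schwann cell and dorsal root ganglion markers, 0 passed the threshold. The summed Schwann cell and ganglion markers ran from 141 to 357 CPM after ACC and from 134 to 473 CPM in Sham, and skeletal muscle markers from 5.96 to 101 and from 4.23 to 45.2 CPM. Over all genes tested at 4 h, 9.37% were higher and 7.04% lower. The part of these markers in the Hox differences was not tested.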

How the data were processed

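Gene counts are whole numbers per gene and library, as deposited by the authors; the deposited gene length, another column of the same table, came from their annotation. Per the labels' protocols, poly-A RNA was made into directional dUTP libraries. The submitters' processing notes name GRCm38 (mm10) as the build, fastp for read cleaning, HISAT2 2.0.5 for alignment and featureCounts 1.5.0-p3 for the gene counts. Strand setting and annotation release are not given in the sources used here. Of the 40 members, 38 have the same span in GENCODE M21, 24 overlap another gene, and 9 share exonic bases with a gene on the same strand and 10 with one on the opposite strand. The authors' normalized tables and their own comparisons were not used here.

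CPM are counts per 1000000 of all counts of a library. Tests were quasi-likelihood F tests in edgeR 4.0.16 under R 4.3.3 (TMM, filterByExpr with a minimum count of 10, robust), with Benjamini-Hochberg adjustment over all genes tested. The SE is the absolute log2 fold change over the square root of F, and intervals are 1.96 SE. The 95% label of these intervals is nominal. They use the normal quantile and are narrower than the F test implies. An interval can thus leave out 0 at an unadjusted p above 0.05, as for Hoxc9 at 1 h. Genes tested were 17810 at 1 h (4 residual degrees of freedom), 17759 at 4 h (20) and 19581 for 6 groups (16). Correlations used log2 CPM (prior count 2) with 100000 permutations within groups, two-sided. Counting intervals (95%) and floors of 3 counts cover counting error only. Alternatives were RLE scaling, DESeq2 1.42.0, no filter, a replicate block, genotype as a term, the left-out library included and each library left out.

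The 1 h numbers pair samples, as both regions came from the same mice per the labels; deviations of same-numbered libraries correlated at 0.00832, 0.00651 and 0.0276. Values in every 1 h library are given for members called with an absolute log2 fold change of at least 1, for Hoxa10, Hoxc10, Hoxd9 and Hoxc8, and for Hoxc5, Hoxc6, Hoxc9 and Hoxc10; values at 4 h for the same 4 and for members called in a 4 h test; from each of 13 lists up to 3 called members. Hoxd10, Hoxc11, Hoxa7, Hoxb8 at 1 h, Hoxd1 and Meis2 were added after their values were seen. Members and lists were chosen with earlier results of these data known. Results for some genes are not reported here, though they stand in the counts. The tests were checked on simulated counts, with the same spread for all genes and changes only in well-counted genes. Genes near the floor were not covered by this check.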

Additional observations from a re-analysis of the deposited data

How the results depend on the processing

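At 1 h the counts of higher and lower Hox genes kept within 1.5 times of 9 and 3 under all 10 alternatives (7 to 11 higher, 3 lower). The mouse as a replicate block left 10 calls, 7 higher and 3 lower, without Hoxb9 and Hoxc10. Hoxd10 was added in 4 and Hoxc11 in 2 of the 10, among them the fit with no filter, which called 139 higher and 133 lower genes of all genes against 37 and 41; DESeq2 called 65 and 65, and fits without 1 library 16 to 88 higher and 18 to 54 lower. At 4 h Hoxb7 and Hoxb8 were called in all 28 alternatives. The count of higher genes, 2, was 1 with genotype as a term and 1 with the left-out library, and 1 to 3 when 1 library was left out; the lower count, 3, stayed within 2 to 4. Genotype and mouse number as a replicate block, although the numbers are of different mice, called 6 members, adding Hoxa5 and Hoxc13 and losing Hoxd10; over all genes it called 1125 higher and 734 lower, against 1664 and 1250. Under that block Hoxc10, near 0, changed sign (-0.014), and with 1 library left out it ran from -0.019 to 0.058 without passing any threshold. Within genotypes, the lower count of WT (1) and that of miR128KO (1) were 0 with the left-out library included; with 1 library left out, the lower count ran from 0 to 1 in WT and 1 to 2 in miR155KI, and the higher count from 0 to 1 in miR128KO and 0 to 1 in miR155KI. The Pearson correlations of Hoxc8 with Hoxa10 and Hoxc10 passed the threshold with the left-out library (r = -0.483 and -0.535, permutation p adjusted over the 6 pairs 0.0446 each). By Spearman rho Hoxa10 passed as well (-0.541, adjusted permutation p = 0.0332), but Hoxc10 did not (-0.484, adjusted permutation p = 0.0794). With RLE scaling neither r passed (-0.387 and -0.487, adjusted permutation p = 0.139 and 0.0968). The cause of these shifts was not tested. Depth limits the genes of groups 11 to 13 in cervical cord, where 3 counts correspond to 0.118 to 0.192 CPM.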
